A study of Homo sapiens with 2 samples.

Results

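The 40 genes described here encode chaperones of the human cytosol and mitochondria, their cochaperones, and the heat shock transcription factors HSF1 and HSF2. They were listed by symbol, out of 33592 gene symbols in the series, and all 40 are listed in both libraries. Of these, 9 genes known as strongly induced by heat shock form the inducible class (HSPA1A, HSPA1B, HSPB1, HSPH1, HSP90AA1, DNAJB1, DNAJB4, BAG3 and CHORDC1). The other 31 form the constitutive class. They were measured in H1 (WA01) cells, an established line of human embryonic stem cells, which were wild type (WT) or carried a homozygous Cas9 knockout of the zinc finger gene ZNF263 (KO), with 1 single-cell library of polyadenylated RNA each. Both cultures were dissociated with TrypLE and stained for viability, no treatment is labelled for either, and the labels do not say whether the KO cells are 1 clone. The title of the KO sample and the names of its files carry different numbers, and whether both stand for the same KO cells could not be settled. Barcodes were read as kept cells when they held 1000 or more unique molecular identifiers (UMIs, each standing for 1 captured RNA molecule) from 500 or more genes, with mitochondrially encoded genes taking no more than 20%. Such cells numbered 2935 in WT and 2286 in KO, and a second set of shallow barcodes, from 250 up to but not including 1000 UMIs, numbered 56837 and 50551.

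Kept cells held a median of 1328 UMIs in WT and 1289.5 in KO, and 4650391 and 3567881 UMIs in all. The median share of mitochondrially encoded UMIs was 4.36% in WT and 5.10% in KO. ZNF263 itself had 83 UMIs in WT and 27 in KO, a level of 17.8 against 7.57 when scaled to 1000000 UMIs (CPM). On the log2 scale KO stood at -1.24 relative to WT, with a 95% interval from -1.92 to -0.60, and the shallow barcodes held 372 and 180 UMIs. Where in the gene the deletion lies is not given in the sources used here, so these UMIs check the genotype only by their direction. The stem cell markers POU5F1, SOX2 and NANOG were detected in both libraries, and the summed level of 11 such markers was 4370 CPM in WT and 5224 CPM in KO. Neural markers were lower in KO: 4 of the 5 measured members were at least 1.5-fold lower, their summed level over all 8 was 324 CPM in WT and 197 CPM in KO, and 1 of the 8 was at 0 in both. Mesoderm markers were lower too, with 36.6 CPM in WT and 12.6 CPM in KO summed over 5 and both measured members at least 1.5-fold lower (MIXL1 at -1.38, -2.09 to -0.73, and EOMES at -1.81, -2.69 to -1.01). The part of these other cell types in the chaperone ratios was not tested. An alternative given at the end left out cells with a neural marker UMI. Between the libraries 20 barcodes of kept cells were shared, as were 4665 shallow barcodes. With 1 library per genotype there was no test: unless said otherwise, every interval below is a 95% interval of counting error alone. Differences between cultures, clones or libraries cannot be told apart from the genotype.

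Chaperones keep other proteins folded. HSP70 binds exposed hydrophobic stretches in cycles driven by ATP, J-domain proteins bring it clients and start hydrolysis, and exchange factors release the nucleotide. HSP90 finishes and holds signalling proteins with its cochaperones, the ring-shaped TRiC complex folds actin and tubulin, and HSP60 with its lid HSP10 does the same work inside mitochondria. Under heat or other proteotoxic stress HSF1 binds repeated GAA units in front of inducible chaperone genes and raises their transcription, while constitutive members serve growing cells at all times. Embryonic stem cells are known for high levels of TRiC.

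The repeated unit is shown first because it is the sequence feature that defines heat shock elements. The RefSeq promoter table (GRCh38.p14) matched 35 of the 40 members with 48 start windows, and the 250 bases before each start were searched for GAANNTTCNNGAA or TTCNNGAANNTTC, 2 patterns that are each other's reverse complement, so that both strands were read and overlapping matches were allowed. A match was present in 6 member windows, of HSPA8, HSP90AA1, HSP90AB1, CHORDC1, HSPD1 and DNAJB6. That is 12.5% of member windows, against 0.441% of all 35116 windows. By class it was 15.4% of 13 inducible windows, those of HSP90AA1 and CHORDC1, and 11.4% of 35 constitutive windows. The shorter form of 2 units (GAANNTTC or TTCNNGAA) was in 31.2% of member windows and 11.6% of all windows. It was in 53.85% of the inducible and 22.86% of the constitutive windows. A match describes letters and is not a binding site. The windows of 4 members whose values are given below follow, 5′ to 3′, with the 3-unit matches in capitals: HSPA8 (chr11:123062137-123062386, minus strand), HSP90AA1 (chr14:102087045-102087294, minus strand), HSP90AB1 (chr6:44247693-44247942, plus strand) and CHORDC1 (chr11:90223050-90223299, minus strand).
HSPA8: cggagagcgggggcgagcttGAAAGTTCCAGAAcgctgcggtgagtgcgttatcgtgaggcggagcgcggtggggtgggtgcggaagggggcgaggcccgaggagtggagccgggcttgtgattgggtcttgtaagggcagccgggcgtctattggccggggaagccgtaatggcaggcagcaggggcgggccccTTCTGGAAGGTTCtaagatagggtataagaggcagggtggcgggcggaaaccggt
HSP90AA1: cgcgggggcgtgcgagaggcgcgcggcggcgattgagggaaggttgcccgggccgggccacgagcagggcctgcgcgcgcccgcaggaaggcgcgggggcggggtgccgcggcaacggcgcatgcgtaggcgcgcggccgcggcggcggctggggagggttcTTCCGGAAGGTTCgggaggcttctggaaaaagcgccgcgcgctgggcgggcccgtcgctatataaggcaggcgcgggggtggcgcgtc
HSP90AB1: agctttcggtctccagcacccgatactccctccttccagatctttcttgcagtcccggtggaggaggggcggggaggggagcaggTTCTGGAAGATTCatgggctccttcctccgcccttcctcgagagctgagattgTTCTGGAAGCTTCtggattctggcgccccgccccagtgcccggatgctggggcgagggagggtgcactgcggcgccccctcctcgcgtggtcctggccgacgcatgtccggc
CHORDC1: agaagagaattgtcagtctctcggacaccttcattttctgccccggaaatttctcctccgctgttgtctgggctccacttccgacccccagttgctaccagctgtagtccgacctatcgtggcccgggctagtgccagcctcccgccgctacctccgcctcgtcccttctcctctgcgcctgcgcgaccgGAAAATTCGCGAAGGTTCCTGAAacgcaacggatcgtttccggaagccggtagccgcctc
In HSPA8 the matches begin 230 and 55 bases before the start, in HSP90AA1 88 bases before it, and in HSP90AB1 165 and 112 bases before it. The start is that of the window shown. HSP90AA1 and HSP90AB1 each have a further start window or windows, and none of those held a 3-unit match. In CHORDC1 a run of overlapping matches begins 60, 55 and 50 bases before the start. The 6 members with a match did not share a ratio: the log2 values of KO over WT in kept cells were 0.42 for HSPA8, 0.13 for DNAJB6, 0.09 for HSP90AB1, 0.03 for HSPD1, 0.02 for HSP90AA1 and -0.06 for CHORDC1.

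As a class, neither group of chaperones differed much between the libraries. The inducible members summed to 14738 UMIs (3169 CPM) in WT and 11147 UMIs (3124 CPM) in KO, a log2 ratio of -0.02 (-0.06 to 0.01). The constitutive members summed to 58050 UMIs (12483 CPM) and 45388 UMIs (12721 CPM), a log2 ratio of 0.03 (0.01 to 0.05). Together the 40 genes held 1.57% of WT and 1.58% of KO UMIs. In shallow barcodes the sums again lay near each other, at 3167 and 3152 CPM for the inducible class (log2 ratio -0.01, -0.02 to 0.01) and 11758 and 12204 CPM for the constitutive class (0.05, 0.05 to 0.06). HSP90AA1 alone made up most of the inducible sum, and without it the other 8 summed to 590 CPM in WT and 505 CPM in KO (log2 ratio -0.22, -0.31 to -0.14), and to 578 and 523 CPM in shallow barcodes (-0.15, -0.18 to -0.11).

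These ratios stand on a scale on which most genes lay below 0: a gene averaging 5 CPM or more over both libraries is called measured here, and over the 10129 such genes the median log2 ratio was -0.14 in kept cells, and it was -0.15 over 10148 genes in shallow barcodes. Measured members numbered 37. Their median was -0.24 in the inducible class (7 measured, 6 below 0) and -0.04 in the constitutive class (30 measured, 17 below 0). By the ranks of the members, and not by counting error, the inducible median had an interval of -1.14 to 0.02. This is the full range of its 7 members and held the median of all genes. The constitutive interval, likewise by ranks, was -0.09 to 0.09 and lay above the median of all genes. In all, 14 members were above 0 and 23 below, where 65.2% of all measured genes were below. This split depends on the scaling: it was 19 and 18 with totals taken without mitochondrially encoded and ribosomal protein genes, which adds 0.06 to every log2 ratio and puts 58.0% of all genes below 0, and 26 and 11 with a median of ratios over genes, which adds 0.12 and puts 52.4% below. Under these scalings the inducible sum without HSP90AA1 was at -0.16 and -0.11, with 5 and 4 of its 6 measured members below 0.

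Few members passed 1.5-fold. None of the 37 was at least 1.5-fold higher in KO (3.94% of all measured genes were), and BAG3 and HSF2 were at least 1.5-fold lower, beside 13% of all measured genes. With the smaller fold of 1.25, 6 members were higher (background 10.3%) and 6 lower (background 30.7%). In shallow barcodes the numbers were 3 higher (background 7.87%) and 4 lower (background 28.9%) at 1.25-fold, while at 1.5-fold no member was higher (background 2.79%) and HSF2 alone was lower (background 10.1%). HSPA8, DNAJC2 and TRAP1 were at least 1.25-fold higher in both sets of barcodes (5.49% of all genes were), though TRAP1 was not in cells with 2000 or more UMIs (-0.01), and BAG3, HSF2 and DNAJB1 at least 1.25-fold lower in both (20.2% of all genes were). The direction was the same in kept cells and shallow barcodes for 13 members that were higher and 18 that were lower, and opposite for 6. How many of all genes kept their direction in this way was not counted.

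**Figure D1:**
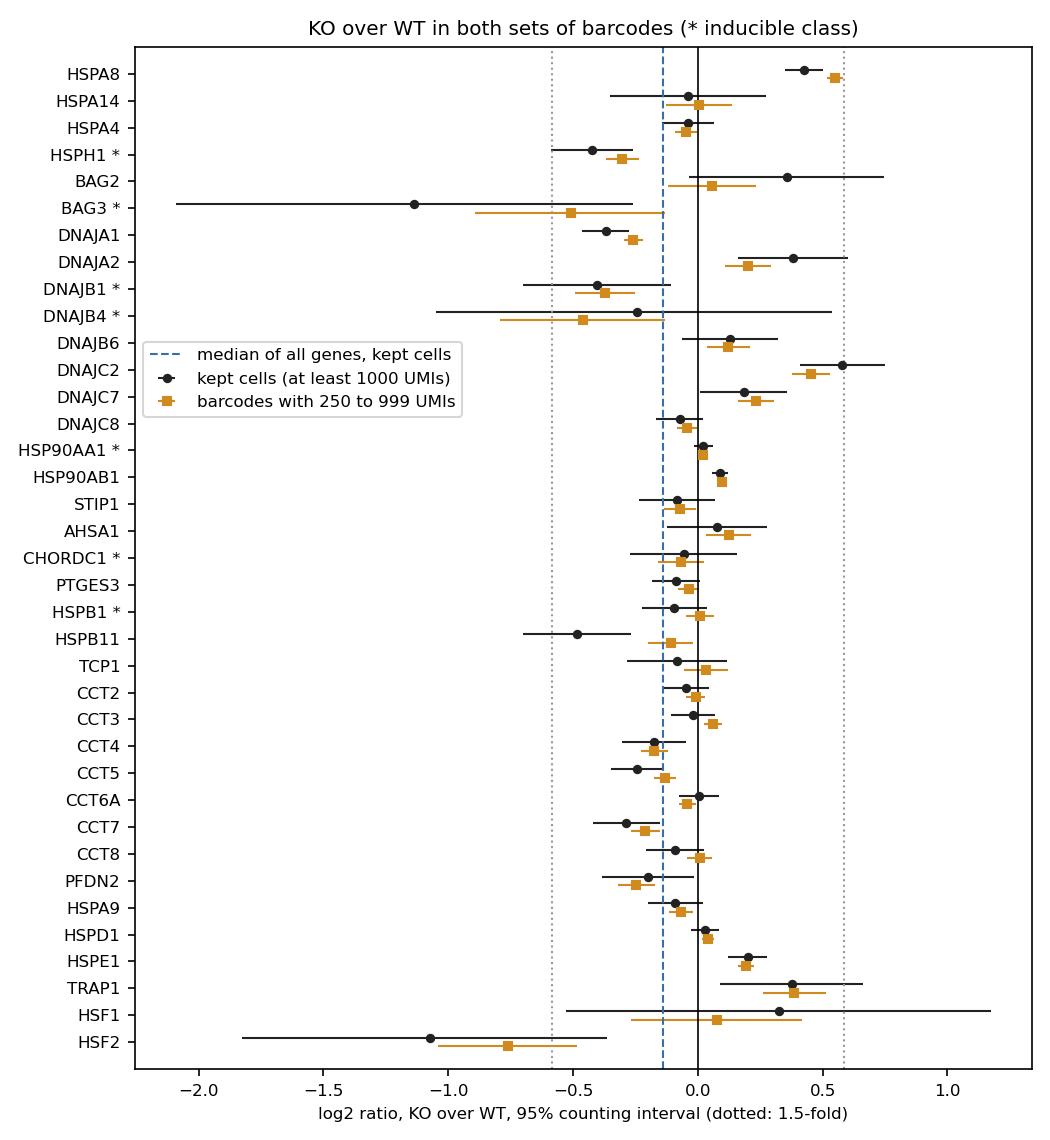
Log2 ratio of KO over WT (x axis) for the 37 measured members, grouped by role from HSP70 at the top to the heat shock factors at the bottom, in kept cells (black circles) and shallow barcodes (orange squares), with 95% counting intervals; stars mark the inducible class, dotted lines 1.5-fold and the dashed line the median of all genes. HSPA8, DNAJC2 and TRAP1 lie to the right in both sets and BAG3 and HSF2 farthest to the left, while the HSP90 pair and HSPD1 lie near 0.

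Among HSP70 proteins, HSPA8, the constitutive cytosolic HSP70 (chr11:123057489-123062462), was the abundant member. It had 2799 UMIs (602 CPM, 580 to 625) in WT and 2881 UMIs (807 CPM, 778 to 838) in KO. The KO value lay above the WT value without overlap of the intervals, at a log2 ratio of 0.42 (0.35 to 0.50). In shallow barcodes the levels were 530 and 775 CPM, a log2 ratio of 0.55 (0.52 to 0.58). HSPA8 shares its sequence with processed pseudogenes, and 10 pseudogene symbols held 31.1% of the summed UMIs of gene and pseudogenes in WT and 28.0% in KO. Adding them to HSPA8 gave a log2 ratio of 0.36 (0.30 to 0.42), so how reads were divided between the copies moves the size of the difference and kept its direction. HSPA14, an HSP70 relative that forms the ribosome-associated complex with DNAJC2, was at 43.4 CPM in WT and 42.3 CPM in KO (-0.04, -0.35 to 0.27).

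HSPA1A and HSPA1B, the stress-induced HSP70 pair and the most sensitive heat shock genes of human cells, were close to absent. HSPA1A had 0 UMIs in both libraries, and HSPA1B had 2 UMIs in each. For HSPA1A the floor of 3 counts stands at 0.645 CPM in WT and 0.841 CPM in KO, and the exact intervals reach 0.793 and 1.03 CPM. Among shallow barcodes HSPA1A had 1 UMI in WT and 2 in KO, and HSPA1B 14 and 11. The copies are nearly identical, so their reads may have been assigned to neither. They lie next to each other on chromosome 6 (HSPA1A at chr6:31815543-31817942), and low counts were not theirs alone: of 60 other RefSeq protein-coding genes within 500 kb of HSPA1A, 29 are in the files, with a median of 0.134 CPM in shallow barcodes, and 17.2% of them reached 1 CPM, against a median of 7.04 CPM and 71.4% of all protein-coding genes. What part of the low HSPA1A and HSPA1B counts comes from the cells was not tested. These data therefore set no limit on stress-induced HSP70.

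The 4 exchange factors had unlike ratios. HSPH1, the inducible HSP110 that releases nucleotide from HSP70, had 840 UMIs (181 CPM) in WT and 480 UMIs (135 CPM) in KO, a log2 ratio of -0.43 (-0.59 to -0.26), and -0.30 (-0.37 to -0.24) in shallow barcodes. HSPA4, its constitutive relative, was at 379 and 369 CPM (-0.04, -0.14 to 0.07; shallow -0.05, -0.09 to -0.00). BAG3, an inducible exchange factor that steers clients to selective autophagy, was thinly counted, with 43 UMIs (9.25 CPM) in WT and 15 UMIs (4.20 CPM) in KO. Its log2 ratio was -1.14 with a wide interval of -2.09 to -0.26, and the 154 and 96 UMIs of the shallow barcodes gave -0.51 (-0.89 to -0.13). BAG2, which inhibits the ubiquitin ligase CHIP, was at 24.3 and 31.1 CPM in kept cells (0.36, -0.03 to 0.75) and at 23.1 and 24.0 CPM in shallow barcodes (0.06, -0.12 to 0.23).

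The 8 J-domain proteins went in both directions, 4 above 0 and 4 below, and their sum was 1496 CPM in WT and 1441 CPM in KO. The highest ratio was that of DNAJC2, the ribosome-bound partner of HSPA14 that acts on nascent chains: 530 UMIs (114 CPM) in WT and 607 UMIs (170 CPM) in KO. Its log2 ratio of 0.58 (0.41 to 0.75) lay just under the 1.5-fold line, and shallow barcodes gave 0.45 (0.38 to 0.53). DNAJA2, a general cytosolic partner of HSPA8, had 344 UMIs in each library, which is 74.0 CPM in WT and 96.4 CPM in KO (0.38, 0.16 to 0.60), with a smaller ratio of 0.20 (0.11 to 0.29) in shallow barcodes. DNAJA1, another such partner, went the other way, from 2532 UMIs (544 CPM) in WT to 1504 UMIs (422 CPM) in KO, at -0.37 (-0.46 to -0.28) and -0.26 (-0.30 to -0.22) in shallow barcodes. DNAJB1, the inducible HSP40, was at 56.3 CPM in WT and 42.6 CPM in KO (-0.40, -0.70 to -0.11; shallow -0.37, -0.49 to -0.25). DNAJB4, also inducible, had 37 and 24 UMIs (-0.24, -1.05 to 0.54), and its 197 and 127 UMIs in shallow barcodes gave -0.46 (-0.79 to -0.13). The spliceosome-associated DNAJC8 was at 465 and 442 CPM, the HSP90-linked DNAJC7 at 127 and 144 CPM, and DNAJB6, which keeps polyglutamine proteins from aggregating, at 107 and 117 CPM. DNAJC2 overlaps PMPCB and DNAJB1 overlaps TECR in the genome. DNAJB4, DNAJC7, HSPA14, HSP90AA1, HSPE1, CCT3, CCT4, TCP1, BAG2, TRAP1 and HSF1 each overlap another protein-coding gene as well. Since strand use in counting is not given in the sources used here, UMIs of such pairs cannot be told apart.

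The HSP90 pair lay close to equal in the libraries. HSP90AA1, the inducible form (chr14:102080742-102139749), had 11995 UMIs (2579 CPM, 2533 to 2626) in WT and 9345 UMIs (2619 CPM, 2566 to 2673) in KO, a log2 ratio of 0.02 (-0.02 to 0.06). HSP90AB1, the constitutive form, had 17533 UMIs (3770 CPM, 3715 to 3826) and 14311 UMIs (4011 CPM, 3946 to 4077), a log2 ratio of 0.09 (0.06 to 0.12). In shallow barcodes the ratios were 0.02 and 0.10. Pseudogene symbols of HSP90AB1 held 11.0% of the joint UMIs in WT and 8.20% in KO, and adding them moved its ratio to 0.04 (0.01 to 0.08). The cochaperones were near the pair in ratio: STIP1, which hands clients from HSP70 to HSP90, was at 183 and 173 CPM, AHSA1, an activator of the HSP90 ATPase, at 98.9 and 104 CPM, CHORDC1 at 91.2 and 87.7 CPM, and PTGES3 (p23), which stabilises closed HSP90, at 456 and 430 CPM. Log2 ratios of these 4 lay between -0.09 and 0.08.

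**Figure D2:**
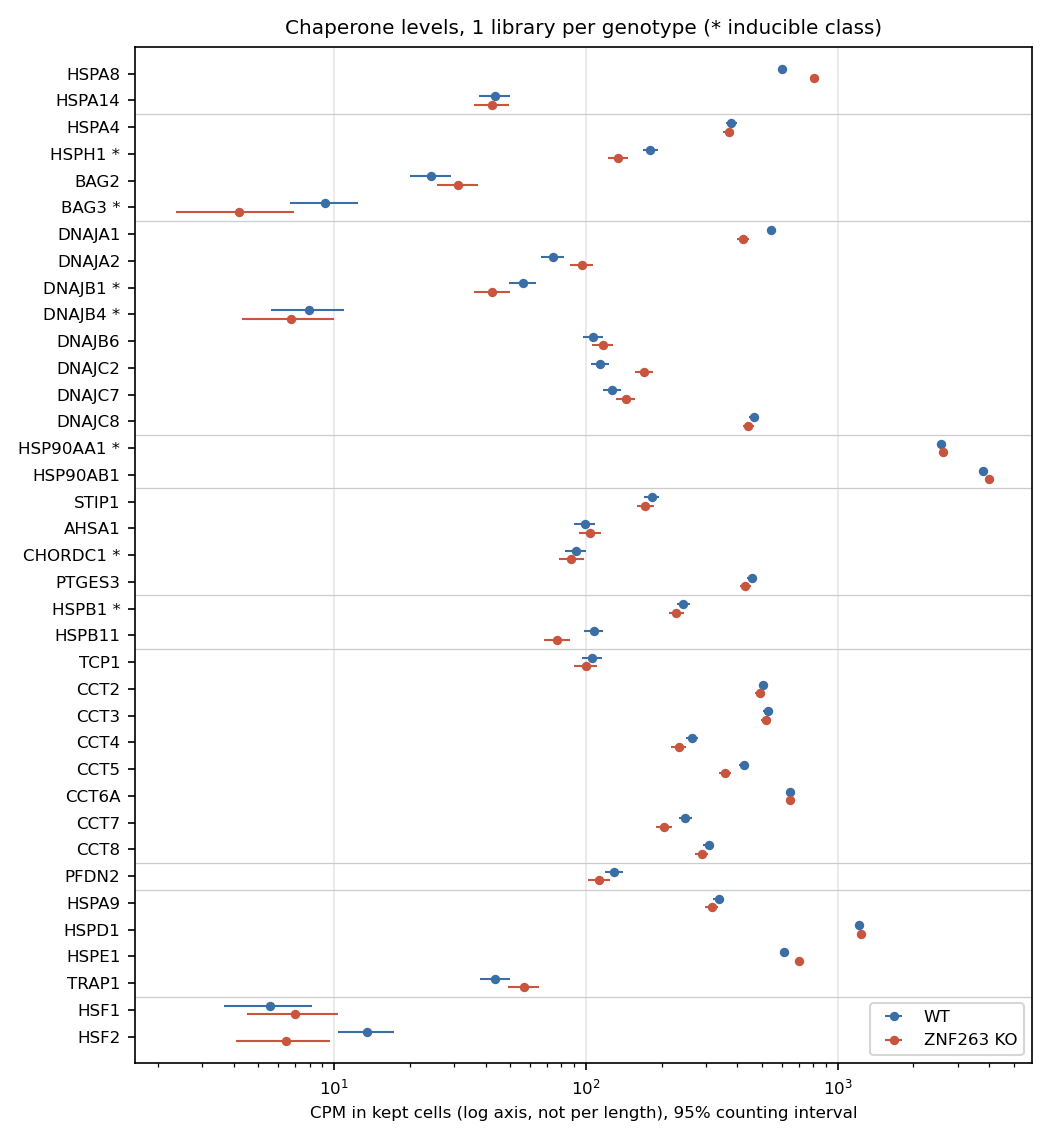
Level of the 37 measured members in kept cells of WT (blue) and KO (red), in CPM on a log axis, grouped by role, with 95% exact Poisson intervals; levels are not divided by transcript length, so genes are not to be ranked by them. WT and KO points of most members touch or overlap, and HSPA8, DNAJA1, HSPH1 and DNAJC2 are among those set apart.

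HSPB1 (HSP27), the inducible small heat shock protein, was at 244 CPM in WT and 229 CPM in KO (-0.09, -0.23 to 0.04), and at 229 and 230 CPM in shallow barcodes. HSPB11 carries the name of that family but is known as IFT25, a part of the transport machinery of cilia. It had 501 UMIs (108 CPM) in WT and 275 UMIs (77.1 CPM) in KO, at -0.48 (-0.70 to -0.27). The shallow barcodes, with 2251 and 1850 UMIs, gave only -0.11 (-0.20 to -0.02), outside the interval of the kept cells.

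The TRiC ring, which is built of 8 kinds of subunit, summed to 3033 CPM in WT and 2846 CPM in KO (-0.09, -0.13 to -0.05; shallow -0.05, -0.06 to -0.03), and this sum was at -0.03 with totals without mitochondrially encoded and ribosomal protein genes and at 0.02 with a median of ratios. By subunit, 7 of 8 lay below 0 in kept cells, 5 of 8 under the first of these scalings and 3 of 8 under the second, beside the shares of all genes given above (65.2%, 58.0% and 52.4%). CCT7 was lowest relative to WT, at 248.8 CPM in WT and 204 CPM in KO (-0.29, -0.42 to -0.15), followed by CCT5 at 424 and 357 CPM (-0.25, -0.35 to -0.14) and CCT4 at 264 and 234 CPM (-0.18, -0.30 to -0.05). These 3 stayed below 0 under each of those scalings. The other 5 (TCP1, CCT2, CCT3, CCT6A and CCT8) had ratios between -0.09 and 0.00, so subunits of 1 complex did not share a ratio. PFDN2, a subunit of prefoldin, which delivers actin and tubulin to TRiC, was at 130 CPM in WT and 113 CPM in KO (-0.20, -0.38 to -0.01; shallow -0.25, -0.32 to -0.17).

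In the mitochondrial set, HSPD1 (HSP60) had 5633 UMIs (1211 CPM) in WT and 4407 UMIs (1235 CPM) in KO (0.03, -0.03 to 0.09). HSPE1 (HSP10), the lid of the HSP60 barrel, had 2849 UMIs (613 CPM) and 2510 UMIs (704 CPM), at 0.20 (0.12 to 0.28), and 0.19 (0.16 to 0.23) in shallow barcodes. The genes of barrel and lid lie head to head on chromosome 2 with 104 bases between them, and their intervals did not overlap. HSPA9 (mortalin), the HSP70 that pulls proteins into the matrix, was at 337 and 317 CPM (-0.09, -0.20 to 0.02). TRAP1, the mitochondrial HSP90, had 203 and 202 UMIs (43.7 and 56.6 CPM), at 0.38 (0.09 to 0.66), and its 975 and 1130 UMIs in shallow barcodes gave 0.39 (0.26 to 0.51). In the 515 WT and 374 KO cells with 2000 or more UMIs, however, TRAP1 was at -0.01 (-0.55 to 0.53). DNAJA3, the mitochondrial J-domain partner, had 0 UMIs in both libraries and 1 UMI in all shallow barcodes. The set summed to 2205 CPM in WT and 2312 CPM in KO (0.07, 0.03 to 0.11).

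Of the heat shock factors, HSF1, the main activator of the inducible class, was barely counted, with 26 UMIs (5.59 CPM) in WT and 25 UMIs (7.01 CPM) in KO. Its ratio could not be placed on either side of 0 at this depth (0.33, -0.53 to 1.18; shallow 0.07, -0.27 to 0.42). HSF2, a factor active in development that pairs with HSF1, had 63 UMIs (13.5 CPM) in WT and 23 UMIs (6.45 CPM) in KO, at -1.07 (-1.83 to -0.36). The 315 and 165 UMIs of the shallow barcodes gave -0.76 (-1.04 to -0.48).

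The same ratios were read in 4 disjoint depth bands of the libraries (kept cells, and barcodes from 500 to under 1000, from 250 to under 500 and from 100 to under 250 UMIs). Of the 37 measured members, 11 were higher in KO in all 4 bands, 17 lower in all 4, and 9 lay on both sides of 0. The same count was not made over all genes, of which 65.2% were below 0 in kept cells and 68.8% in shallow barcodes. Whether this agreement is particular to the members is therefore not known. HSPA8 ranged from 0.42 to 0.57, DNAJC2 from 0.43 to 0.58, TRAP1 from 0.36 to 0.46, HSPH1 from -0.43 to -0.17, DNAJA1 from -0.37 to -0.25 and HSF2 from -1.07 to -0.47. The bands come from the same 2 libraries and are not replicates. Barcodes with 10 to 100 UMIs, which lie below the range of cells, held the classes at much the same level, 3200 and 3151 CPM for the inducible class and 11795 and 12158 CPM for the constitutive class, and gave HSPA8 a ratio of 0.59 (0.55 to 0.62). How much of the counts in shallow barcodes is RNA from other cells was not tested. Within a library the constitutive members, but not the inducible sum, were slightly rarer in shallow barcodes than in kept cells: the constitutive sum was at -0.09 (-0.10 to -0.07, log2 shallow over kept) in WT and -0.06 (-0.07 to -0.05) in KO, and the inducible sum at -0.00 (-0.03 to 0.02) and 0.01 (-0.02 to 0.04). No member was at least 1.25-fold higher in shallow barcodes (background 7.02% in WT and 7.37% in KO), and 1 in each library was lower (background 4.64% and 6.41%). The median over all genes was -0.01 in each library.

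Variability between cells was read as variance over mean of UMIs per cell after each kept cell was thinned at random to 1000 UMIs, with 10 draws whose lowest and highest values are given. Counting alone gives a value near 1. The ranges over draws cover the thinning and not the choice of cells. Of the 25 members that averaged 0.1 UMI or more per thinned cell in each library, 3 reached 1.1 in WT and 3 in KO, against 10.1% and 7.95% of 1472 genes. They were the same 3 genes, the most abundant members in UMIs. HSP90AB1 was at 1.26 (1.23 to 1.30) in WT and 1.30 (1.26 to 1.32) in KO, HSP90AA1 at 1.15 (1.12 to 1.18) and 1.27 (1.25 to 1.31), and HSPD1 at 1.14 (1.096 to 1.160) and 1.14 (1.11 to 1.17). High values were more frequent among abundant genes: of those averaging 1 UMI or more, 46.6% in WT and 37.6% in KO reached 1.1, with medians of 1.09 and 1.08. HSP90AA1 was the member with the largest gap between the libraries, 0.14 on the log2 scale, where 95% of the 1472 genes lay between -0.12 and 0.09. That range was not read over abundant genes alone. The median over the 25 members was 1.02 in WT and 1.04 in KO. HSPA8 was at 1.08 and 1.06 although its level differed, and the inducible HSPH1 and HSPB1 were at 1.06 and 1.02 in WT and at 1.03 and 0.98 in KO.

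**Figure D3:**
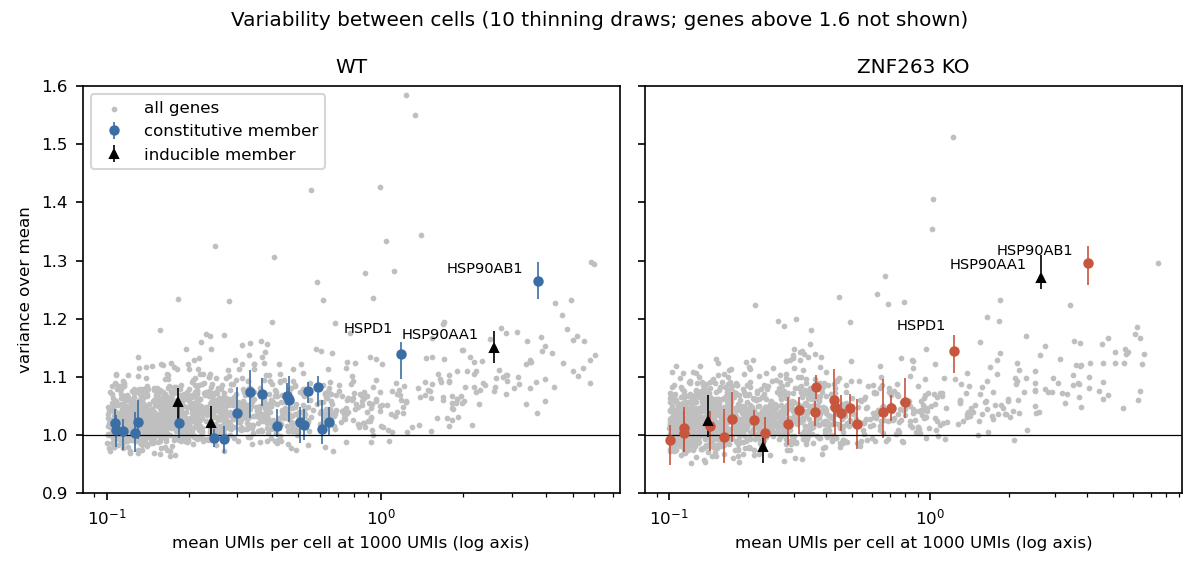
Variance over mean (y axis) against mean UMIs per cell (x axis, log) in kept cells thinned to 1000 UMIs, for WT (left) and KO (right); grey points are all genes, coloured circles constitutive and black triangles inducible members, with bars from the lowest to the highest of 10 draws. HSP90AB1, HSP90AA1 and HSPD1 stand above 1.1 in both libraries and the other members lie between 0.98 and 1.08; 13 genes in WT and 10 in KO lie above the top of the axis.

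Summed over a class, the constitutive members varied more than counting alone gives, at 1.53 (1.48 to 1.59) in WT and 1.48 (1.43 to 1.53) in KO. Covariance between members, the part of that variance that comes from members being high in the same cells, made up 27.1% in WT and 23.4% in KO. Within bands of mitochondrial share (under 2%, 2 to 5%, 5 to 10% and 10 to 20%, described below) the constitutive value was 1.48, 1.33, 1.26 and 1.14 in WT and 1.37, 1.20, 1.32 and 1.39 in KO. In each band this mean over draws was lower than over all cells of that library, though some ranges over draws overlapped. Between the libraries the ranges were apart only in the 2 to 5% band (1.30 to 1.38 in WT and 1.15 to 1.26 in KO). They overlapped in the other bands, of which the 10 to 20% band held only 123 WT and 184 KO cells. The inducible sum was at 1.13 (1.102 to 1.160) in WT and 1.25 (1.22 to 1.28) in KO, with covariance of 0.321% and 1.94%. Within the same bands HSP90AA1 was at 1.14, 1.08, 1.15 and 1.22 in WT and 1.22, 1.22, 1.22 and 1.20 in KO. For HSP90AA1 and for the inducible sum, ranges over draws were apart between the libraries only in the 2 to 5% band. Without HSP90AA1 the inducible sum was at 1.02 (0.99 to 1.07) and 1.00 (0.98 to 1.04), close to counting in both libraries. TRiC as a complex was at 1.097 (1.08 to 1.13) and 1.07 (1.04 to 1.09).

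**Figure D4:**
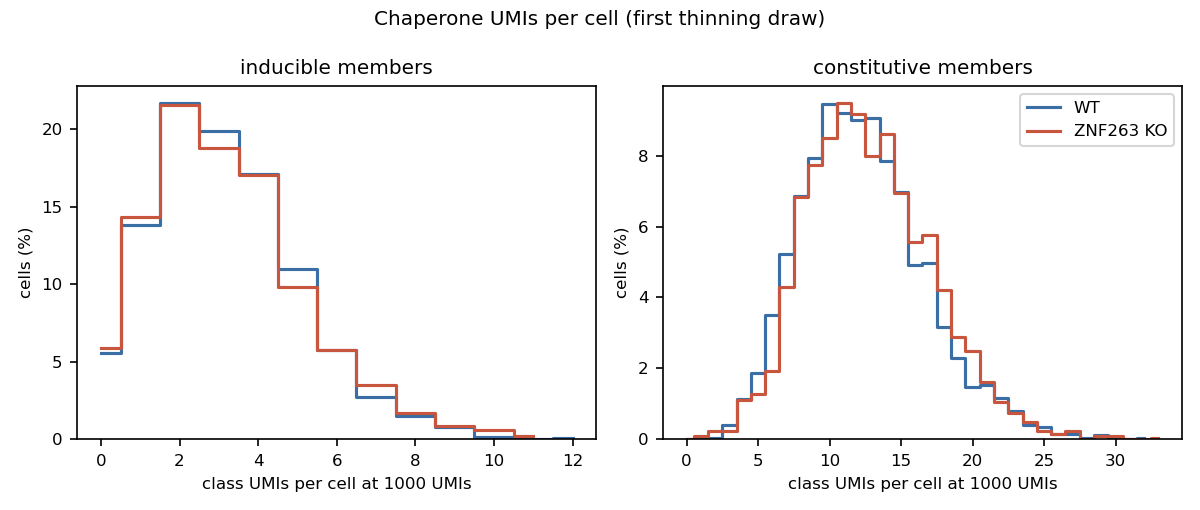
Percentage of kept cells (y axis) by UMIs of the inducible (left) and constitutive (right) class per cell thinned to 1000 UMIs (x axis), WT in blue and KO in red, from the first thinning draw. Both classes form a single hump in each library, with medians of 3 inducible UMIs and 12 constitutive UMIs. Without HSP90AA1 the inducible class averaged only 0.58 UMI per cell in WT and 0.51 in KO. At this depth the plot cannot tell whether a separate group of cells with many inducible UMIs exists.

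Cells were also compared by single inducible genes at equal depth (cells with against cells without a UMI for DNAJB1 and HSPH1, and at least 5 against at most 1 UMI for HSP90AA1, the latter limits chosen after the data were seen). HSPA1A and HSPA1B had too few UMIs for the same comparison. Cells with a DNAJB1 UMI, 158 in WT and 101 in KO on average over draws, held 0.97 times (0.90 to 1.02) the other inducible UMIs of cells without one in WT and 1.06 times (0.99 to 1.12) in KO. Cells with an HSPH1 UMI held 1.04 and 1.03 times. Cells with at least 5 HSP90AA1 UMIs held 1.22 times (1.18 to 1.25) the HSP90AB1 of cells with at most 1 in WT and 1.20 times (1.15 to 1.23) in KO, and 1.17 times the constitutive sum in both. In WT they held 1.01 times (0.87 to 1.12) the other inducible members and in KO 1.16 times (1.05 to 1.24). The ranges of the libraries overlapped for the other inducible members. Mitochondrial share, which also moved with these levels, was not held fixed in this comparison.

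The share of mitochondrially encoded UMIs, often read as a sign of cell quality, differed between the libraries and moved with the chaperones. In cells with under 2%, 2 to 5%, 5 to 10% and 10 to 20% such UMIs the constitutive sum was 14838, 12519, 11068 and 10127 CPM in WT and 15106, 13553, 11666 and 10049 CPM in KO. The inducible sum was 3630, 3270, 2855 and 2419 CPM in WT and 3763, 3380, 2847 and 2294 CPM in KO. To keep the mitochondrial UMIs themselves out of the scale they were left out of the totals, and the 5 to 10% band was then set against the band under 2%. On that scale the log2 ratio of all members was -0.32 (-0.35 to -0.29) in WT and -0.29 (-0.32 to -0.26) in KO, where the median of all genes was 0.12 and 0.04. Of the measured members 33 of 37 were lower in WT and 31 of 36 in KO, against 41.6% and 47.8% of all measured genes. At 1.25-fold, 10 members were lower in each library (background 15.9% in WT and 21.7% in KO) and 3 higher in each (background 38.8% and 32.7%). HSPD1 was at -0.50 in WT and -0.37 in KO, HSP90AB1 at -0.44 and -0.37, and HSPA8 at -0.04 (-0.17 to 0.09) in WT but -0.29 (-0.42 to -0.16) in KO, a difference between libraries that was not tested. Within bands the ratios of KO over WT kept their side of 0 for only part of the members: of 34 with a value in each band, 7 were higher in 4 of 4, 9 lower in 4 of 4 and 18 lay on both sides, HSPA4, HSPD1, HSP90AA1, HSPB1 and DNAJB6 among them. The shares of all genes that did so were not counted. HSPA8 was higher in 4 of 4 bands (0.28 to 0.56), as were DNAJC2 (0.26 to 1.38), TRAP1 (0.14 to 0.50) and DNAJA2 (0.39 to 0.85), and HSPH1 (-0.80 to -0.21), DNAJA1 (-0.45 to -0.23), DNAJB1 (-0.73 to -0.30) and HSF2 (-2.10 to -0.62) were lower in 4 of 4. These are ranges of the ratios, and each of these members had a counting interval that held 0 in some band. For HSPA8 and DNAJA1 this was the 10 to 20% band, and for DNAJC2 the 2 to 5% band. For DNAJA2 it was the bands under 2% and 10 to 20%, and for HSPH1 those of 2 to 5% and 10 to 20%. TRAP1 left out 0 only in the 5 to 10% band (0.05 to 0.96), and the intervals of DNAJB1 held 0 in each band. HSF2 had 14 and 5, 22 and 3, 25 and 13, and 2 and 2 UMIs in WT and KO from the lowest band up. Only its 2 to 5% interval (-4.48 to -0.36) left out 0. BAG3 was lower in the 3 bands that gave a finite ratio, with 11 and 6, 16 and 6, and 16 and 2 UMIs. Of these only the 5 to 10% interval (-6.03 to -0.78) left out 0. In the 10 to 20% band BAG3 had 0 UMIs in WT and 1 in KO.

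**Figure D5:**
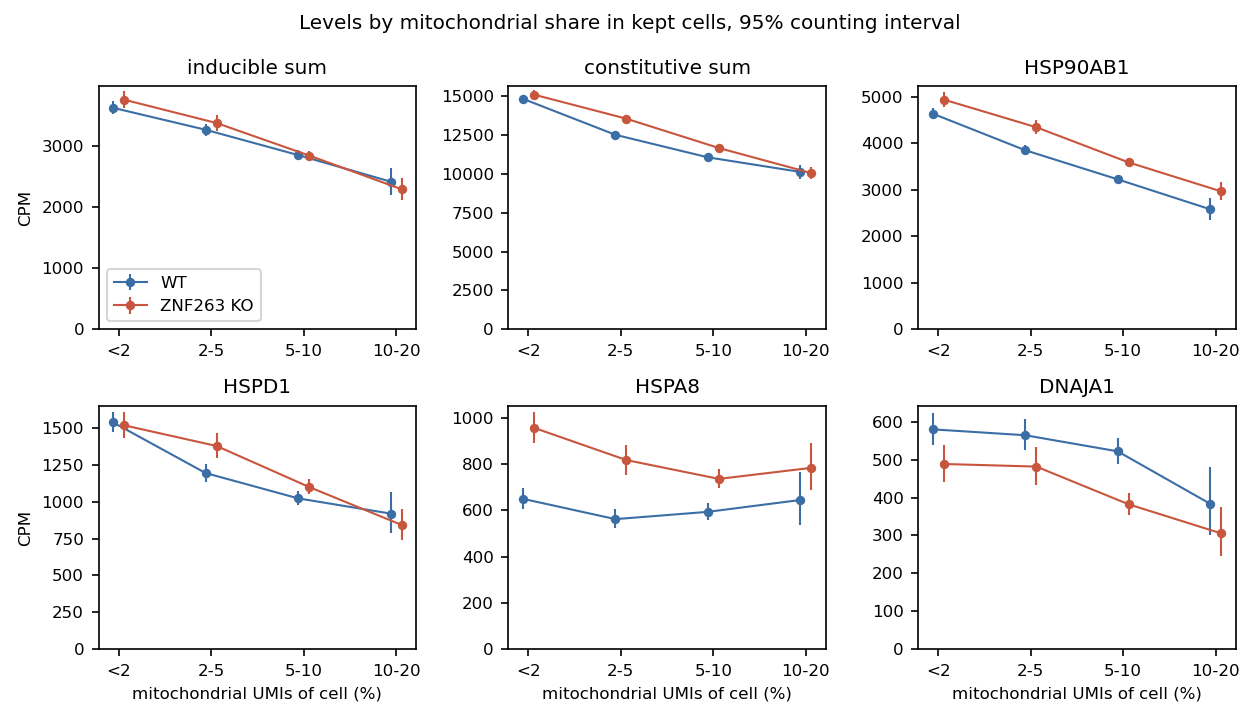
Level in CPM (y axis, from 0) of both classes and of 4 members in kept cells by share of mitochondrially encoded UMIs (x axis), WT in blue and KO in red, with 95% exact Poisson intervals. Both class sums decline from the lowest to the highest band in each library, and HSPA8 lies higher and DNAJA1 lower in KO in every band.

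Other chaperone and cochaperone genes, a list of 71 outside the 40, were counted in the same way: 52 were measured, with a median log2 ratio of -0.07, 2 at least 1.5-fold higher and 4 at least 1.5-fold lower in KO, beside the background of 3.94% and 13% above. Among those averaging 10 CPM or more, the largest ratios were those of HSPA2, an HSP70 known from male germ cells, at 36 UMIs in WT and 59 in KO (1.095, 0.47 to 1.74), DNAJC24, a J-domain protein of diphthamide synthesis, at 96 and 35 UMIs (-1.07, -1.68 to -0.50), PDCL at 109 and 48 UMIs (-0.80, -1.32 to -0.30), and FKBP5, an HSP90 cochaperone of steroid receptors, at 294 and 141 UMIs (-0.68, -0.98 to -0.38). Shallow barcodes gave the same directions with smaller ratios, 0.55 for HSPA2, -0.68 for DNAJC24, -0.37 for PDCL and -0.42 for FKBP5. The heat-specific HSPA6 had 0 UMIs in both libraries. Genes often induced when cells are dissociated, a list of 21, had 11 measured members with a median of 0.02, 2 at least 1.5-fold higher and 0 lower. Among them HMOX1, which degrades haem under oxidative stress, had 36 UMIs in WT and 73 in KO (1.40, 0.81 to 2.02) but a smaller ratio in shallow barcodes (0.74, 0.50 to 0.98, from 239 and 353 UMIs), and the AP-1 gene JUND had 93 and 49 (-0.54, -1.07 to -0.03). In cells without any UMI of a neural marker, 1899 in WT and 1708 in KO, the ratios of all 37 members stayed within the intervals given for all kept cells, and 2 changed sign. These cells are part of the 2935 and 2286 kept cells that gave the intervals. Most neural marker UMIs were of TUBB3, at 178 CPM in WT and 169 CPM in KO (-0.07, -0.22 to 0.08). A shallow neural cell can also lack a marker UMI, so the leave-out cannot decide the part of other cell types.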

How the data were processed

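The deposited files hold UMI counts per gene and barcode, whole numbers that the authors made without normalization. Named in the submitters' processing notes, without roles, are the build hg38, featureCounts 2.0.1, Subread, STAR 2.7.10a, and UMI-tools 1.1.2. Gene annotation, strand use and barcode filtering: not given in the sources used here. The KO matrix holds 15 entries beyond its stated size, and all were used. Per the labels' protocols, libraries came from a variant of Microwell-seq, in which a cell is lysed beside a bead that captures polyadenylated RNA.

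UMIs were summed over kept cells or shallow barcodes and divided by all UMIs of those barcodes (CPM), so values depend on what else a library holds. Levels have exact Poisson and ratios exact conditional binomial intervals, all for counting error only. The floor for a count of 0 is 3 counts. No p-value was computed, since cells of 1 library are not replicates. A member past 1.5-fold counts as different in size. Doublets were not removed, and an alternative left out cells over 4 times the median UMI count. The intervals were tested on simulated Poisson counts and the thinning on simulated cells, both without variation between replicate libraries. This checks the calculation and not the error between libraries. Promoter windows, coordinates and overlaps are from RefSeq (GRCh38.p14). Python 3.11.15, NumPy 2.4.6, SciPy 1.17.1, pandas 2.3.3 and matplotlib 3.10.9 were used. Named are all members, ZNF263, stem cell markers, and from the lists of other chaperones and dissociation genes up to 4 with the largest ratios among genes averaging 10 CPM or more. HSPA6, MIXL1, EOMES and TUBB3 were named after their values were seen. The members and lists were chosen with earlier results of these data known. Alternatives changed the scaling, the UMI minimum, the mitochondrial limit, the class boundaries, the thinning depth and the pseudogene handling.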

Additional observations from a re-analysis of the deposited data

How the results depend on the processing

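No paired analysis was possible because the labels give no replicate numbers and each genotype has 1 library. For the inducible sum the log2 ratio of KO over WT moved from -0.02 to 0.044 with totals without mitochondrially encoded and ribosomal protein genes, 0.095 with a median of ratios, -0.10 with a minimum of 2000 UMIs, 0.030 with a broader inducible class and -0.22 without HSP90AA1. For the constitutive sum it moved from 0.03 to 0.092 and 0.14 under the same scalings, 0.052 with a minimum of 500 UMIs, -0.032 with 2000 UMIs, 0.0079 with the broader inducible class and -0.00040 without HSP90AB1. In shallow barcodes the inducible ratio of -0.01 became 0.055 and 0.11 under these scalings, 0.012 from 500 to under 1000 UMIs and -0.15 without HSP90AA1, and the constitutive ratio of 0.05 became 0.12, 0.17, 0.066 and, without HSP90AB1, 0.035. The cause of these moves was not tested. The leave-out of the most abundant member in shallow barcodes, the leave-out of neural marker cells and that of shared barcodes were chosen after seeing the data. The number of members at least 1.5-fold higher in KO went from 0 to 1 (DNAJC2) with either scaling and with a minimum of 2000 UMIs. The log2 ratio of variance over mean for the inducible sum went from 0.14 to 0.060 at 500 thinned UMIs, 0.069 with the broader class and -0.025 without HSP90AA1. At a minimum of 2000 UMIs, 515 WT and 374 KO cells remained, and TRAP1 was at -0.01 (-0.55 to 0.53) there. The inducible median lay between -0.25 and -0.06 and the constitutive median between -0.07 and 0.08 over the alternatives run. Of 37 members, 23 stayed within their interval with a median of ratios, 26 with a minimum of 2000 UMIs and 37 without the 20 shared barcodes. The sign changed for 12, 6 and 0 members in the same order, so TRAP1 was not the only member to move in the deeper cells. Depth limits BAG3, HSF1, HSF2 and DNAJB4, each under 100 UMIs per library in kept cells, and no alternative replaces a second library.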
